A study of Homo sapiens with 12 samples.

Results

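The genes described here are the HOX genes of the 4 clusters and the members of the PAX, MSX, LHX, DLX, sine oculis (SIX2, SIX3 and so on), MEIS, PBX and IRX families, patterning transcription factors of which nearly all carry a homeodomain. They were chosen by symbol alone, as one of these family names followed directly by a number, and not by any measured value. Of 14884 genes that the array annotation names, 68 fitted, each represented by 1 probe set, chosen for its highest mean. Genes of these families that no probe set in the annotation used names are not analysed here, and HOXA2 stood alone for the HOXA cluster.

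RNA came from Ishikawa cells, an established human endometrial adenocarcinoma line, and was hybridised to 12 expression arrays in 4 labelled groups of 3. The groups were shMOF ERα(+), control ERα(+), shMOF ERα(-) and control ERα(-), where shMOF is by its name a short hairpin against MOF (gene KAT8), which acetylates histone H4, and ERα (gene ESR1) is an oestrogen receptor. All 4 groups are of the same line, and neither what the control cells carry nor what made cells ERα(+) or ERα(-) is given in the sources used here. Nothing in the labels says that the 3 arrays of a group came from separate cultures, so p-values measure the spread between arrays, which may be technical.

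Homeodomain proteins bind short AT-rich DNA sites through a helix-turn-helix fold. HOX genes lie in clusters whose order matches the order of their domains along the body axis, and MEIS and PBX proteins are their DNA-binding partners. In the female tract, HOXA9 to HOXA13 pattern the Müllerian duct, PAX2, PAX8 and LHX1 are needed for the ducts of the urogenital ridge, and PAX8 and MSX1 are known from endometrial epithelium.

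The labels were set against the targeted genes before any direction was read. KAT8 averaged 6.78 ± 0.21 on the log2 scale in shMOF ERα(+) arrays and 6.74 ± 0.12 in control ERα(+) arrays (SD, n = 3 each). It averaged 6.75 ± 0.034 in shMOF ERα(-) arrays and 6.77 ± 0.095 in control ERα(-) arrays (SD, n = 3 each), so a lower KAT8 level was not seen in arrays labelled shMOF. ESR1 averaged 4.27 and 4.46 in shMOF ERα(+) and control ERα(+) arrays, against 4.42 and 4.28 in shMOF ERα(-) and control ERα(-) arrays. Its values, from 4.123 to 4.655, were below the level of silent genes defined below on every array, those labelled ERα(+) included. A signal below that level does not separate low expression from none, so the ERα labels could not be checked by ESR1. The probe sets may lie outside what a hairpin or a construct alters, which was not tested, and every direction here is one between arrays as labelled. Epithelial genes fixed as markers of the line were present, with 9 of 10 measured above the level of silent genes defined below (KRT8, KRT18, KRT19, EPCAM, CLDN3, CLDN4, CLDN7, ESRP1 and GRHL2), and 0 of 3 fibroblast, 0 of 5 endothelial and 1 of 5 immune markers (CD68) were above it.

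The arrays also fell into a pattern that crossed the labels. IGF2BP1, an oncofetal RNA-binding protein, ranged from 7.14 to 8.05 on 6 arrays and from 5.23 to 5.62 on the other 6. The first 6 were all control ERα(-) arrays, replicates 2 and 3 of shMOF ERα(+) and replicate 2 of shMOF ERα(-). The low values were on all control ERα(+) arrays, replicate 1 of shMOF ERα(+) and replicates 1 and 3 of shMOF ERα(-). Its part in the differences between labelled groups was not tested, because groups made from measured values are not groups of the study. The arrays are named again where members followed the same pattern, and each set of 6 is used below only for correlations within it.

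Promoters are shown for members whose levels carry the results that follow, so that the region upstream of each can be read beside its values. They come from RefSeq on build GRCh38.p14, as 250 bases before to 50 bases after the first listed start, 5′ to 3′ on the gene's strand. Capitals mark CCAAT, a promoter element bound by the factor NF-Y, read on either strand (ATTGG on the other). They also mark GGTCA, the 5-base arm of the oestrogen response element. PAX8 lies at chr2:113278872-113279171 on the minus strand, MSX1 at chr4:4859415-4859714 on the plus strand and LHX2 at chr9:124011518-124011817 on the plus strand. MEIS1 lies at chr2:66434875-66435174 on the plus strand and SIX4 at chr14:60724302-60724601 on the minus strand.
PAX8: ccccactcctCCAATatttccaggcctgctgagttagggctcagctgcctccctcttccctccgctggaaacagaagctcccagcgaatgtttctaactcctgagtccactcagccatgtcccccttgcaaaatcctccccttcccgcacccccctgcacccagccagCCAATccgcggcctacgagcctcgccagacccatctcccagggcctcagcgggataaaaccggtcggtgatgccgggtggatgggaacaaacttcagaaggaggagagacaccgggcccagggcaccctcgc
MSX1: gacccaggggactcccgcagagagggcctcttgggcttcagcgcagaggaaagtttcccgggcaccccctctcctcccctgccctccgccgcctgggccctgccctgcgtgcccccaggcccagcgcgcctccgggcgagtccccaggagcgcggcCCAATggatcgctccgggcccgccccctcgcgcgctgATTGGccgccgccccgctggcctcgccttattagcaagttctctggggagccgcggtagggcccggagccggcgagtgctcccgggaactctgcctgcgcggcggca
LHX2: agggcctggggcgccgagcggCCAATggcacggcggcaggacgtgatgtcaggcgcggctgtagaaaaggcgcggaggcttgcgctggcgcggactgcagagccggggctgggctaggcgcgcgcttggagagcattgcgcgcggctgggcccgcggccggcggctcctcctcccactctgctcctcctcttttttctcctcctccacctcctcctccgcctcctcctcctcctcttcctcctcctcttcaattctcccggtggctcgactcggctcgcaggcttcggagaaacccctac
MEIS1: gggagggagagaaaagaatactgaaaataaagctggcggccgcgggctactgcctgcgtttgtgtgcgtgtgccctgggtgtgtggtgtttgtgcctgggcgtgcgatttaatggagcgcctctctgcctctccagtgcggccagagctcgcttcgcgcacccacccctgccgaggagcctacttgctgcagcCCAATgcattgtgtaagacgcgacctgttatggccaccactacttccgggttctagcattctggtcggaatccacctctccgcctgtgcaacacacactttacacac
SIX4: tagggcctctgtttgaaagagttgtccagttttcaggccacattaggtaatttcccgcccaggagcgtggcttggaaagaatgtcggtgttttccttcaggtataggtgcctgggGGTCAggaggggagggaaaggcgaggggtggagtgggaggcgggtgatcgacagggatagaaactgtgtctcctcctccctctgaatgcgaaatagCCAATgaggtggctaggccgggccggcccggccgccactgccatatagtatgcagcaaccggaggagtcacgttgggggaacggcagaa

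Counted from the start, CCAAT began at -240 and -82 in PAX8, at -94 and -57 in MSX1 (the nearer on the other strand), at -229 in LHX2, at -57 in MEIS1 and at -39 in SIX4. GGTCA was found in SIX4 alone of these 5, at -135. Promoters were listed for 41 members, and CCAAT was in 25 of them, or 61%, against 35.7% of all 27305 RefSeq promoters of the same length. Other motifs were searched on both strands with no allowance for mismatches. GGTCA was in 29.3% of member promoters and 37.7% of all, TAATTA, the homeodomain core, in 7.32% and 4.98%, and TGACAG, a MEIS site, in 14.6% and 15.9%. TGATTNAT, a PBX-HOX site, was in 7.32% and 2.94%, TATAAA in 4.88% and 12%, and the full oestrogen response element (GGTCA, any 3 bases, TGACC) in 0 of 41 and 0.0659%. Base composition differed as well: the median promoter of a member held 63.7% G and C and 24 CpG, against 58.3% and 14 over all promoters. GGTCA lies within the full element, so matches of the longer motif count in both. Whether any of these matches is bound was not tested.

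Most of the 68 genes did not rise above the level of silent genes. The level was set from 84 keratin-associated protein genes (KRTAP), structural genes of hair, as the 95th percentile of their means, 6.155 on the log2 scale. It is an upper bound and not the typical silent signal: the median of the members' means was 4.949, against 3.644 for KRTAP genes. The lowest member, LHX4, lay above 51.19% of KRTAP genes, so members below the level are not shown to be silent. By that level 12 of 68 members, or 17.6%, were expressed, against 6247 of 14884 named genes, or 42%. An array signal also depends on each probe set's affinity, so a level above it is a description, and levels of different genes are not ordered here. The 12 were PAX8, MSX1, MEIS1, SIX4, DLX6, PBX2, IRX3, HOXD13, SIX3, LHX3, DLX5 and LHX2. With the level set from 1 group alone the count was 12 in each of the 4 labelled groups, but not of the same genes: in control ERα(-) arrays HOXD11 was above it and LHX2 was not. Just inside the level lay DLX5 at 6.391 and LHX2 at 6.27, and just outside it HOXD11 at 6.131 and PBX4 at 5.817. Array by array, LHX2 was above the array's own KRTAP level on 6 of 12 arrays, DLX5 on 9, LHX3 on 10 and HOXD13 on 11, and the other 8 expressed members on all 12. HOXD11, just outside by its mean, was above it on 7.

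**Figure D1:**
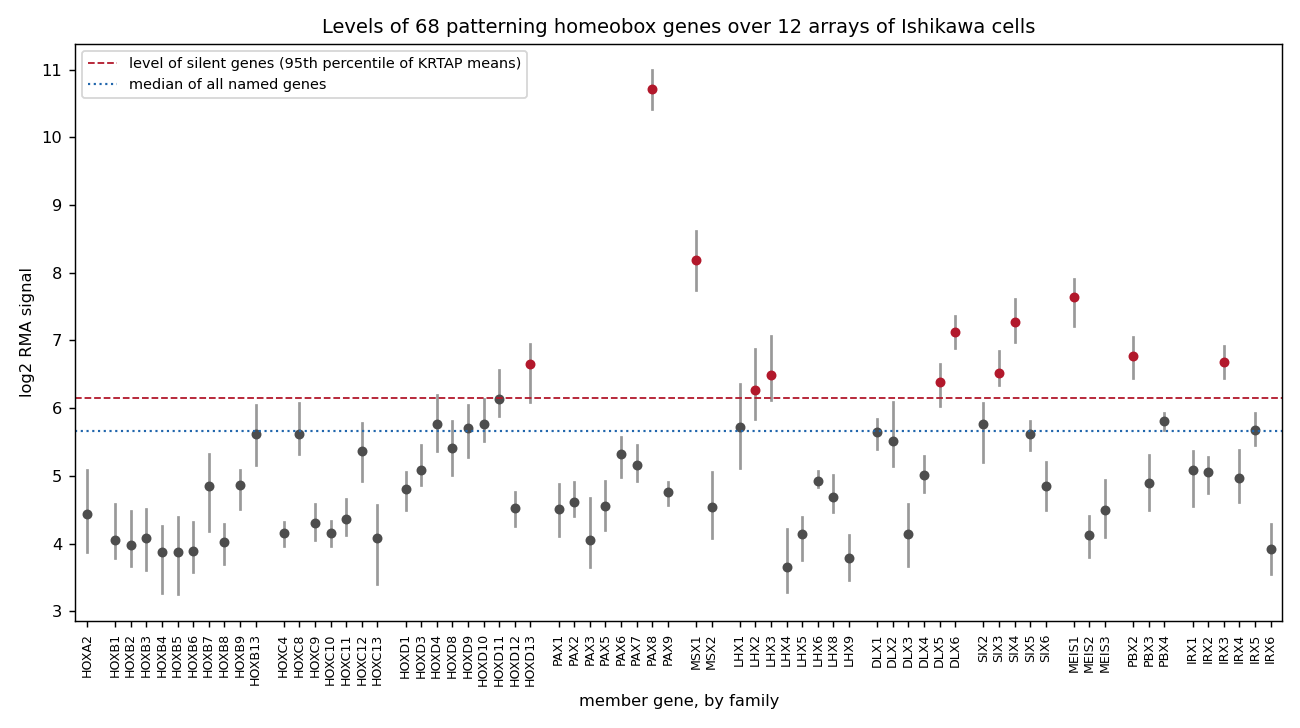
Mean log2 signal of the 68 genes over 12 arrays (points) with the lowest and the highest array (bars), by family; red points are the 12 above the level of silent genes (dashed, 6.155), and the dotted line is the median of all named genes (5.662). PAX8 averages 10.71, and 1 of 27 HOX genes, HOXD13, is above the dashed line.

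HOX genes were nearly all below the silent level. Above it was 1 of 27, HOXD13, the most posterior gene of its cluster, known from limbs and the urogenital tract. None of 10 HOXB, 7 HOXC or the single HOXA gene was above the level. Medians of the gene means were 4.037 for HOXB, 4.304 for HOXC and 5.705 for HOXD, where 5 of 9 genes were above the median of all named genes, 5.662. In HOXB and HOXC the 17 genes had means between 3.874 and 5.622.

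PAX8, a paired-box factor of thyroid, kidney and Müllerian epithelium, gave values that overlapped between all 4 groups. It read 10.99, 10.56 and 10.69 on shMOF ERα(+) arrays, against 10.73, 10.62 and 10.79 on control ERα(+) arrays. On shMOF ERα(-) arrays it read 10.70, 10.79 and 10.70, against 10.41, 10.63 and 10.85 on control ERα(-) arrays. Its differences between 2 groups lay between 0.02 and 0.10 on the log2 scale, each with a standard error of 0.14. For shMOF against control the 95% interval was -0.27 to 0.33 among ERα(+) arrays and -0.20 to 0.40 among ERα(-) arrays. PAX2, its paralogue in the kidney and the ducts, had group means of 4.69, 4.63, 4.66 and 4.45 in shMOF ERα(+), control ERα(+), shMOF ERα(-) and control ERα(-) arrays, and lay below the silent level on every array, with 4.41 to 4.90. The other PAX genes, PAX1, PAX3, PAX5, PAX6, PAX7 and PAX9, had means below it too.

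MSX1, a homeodomain repressor of the uterine epithelium, varied across the labels. It read 8.53, 7.74 and 7.95 on shMOF ERα(+) arrays, against 8.27, 8.40 and 8.61 on control ERα(+) arrays. The ERα(-) arrays gave 8.51, 7.92 and 8.39 for shMOF, against 7.89, 8.04 and 8.01 for control. Its values fell into 6 arrays from 7.74 to 8.04 and 6 from 8.27 to 8.61, with the widest gap between neighbouring arrays, 0.235, between them. The 6 high arrays were exactly the 6 with low IGF2BP1. MSX2, its paralogue, was below the silent level, with group means of 4.27, 4.68, 4.68 and 4.55 in shMOF ERα(+), control ERα(+), shMOF ERα(-) and control ERα(-) arrays.

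LHX2, a LIM-homeodomain factor of forebrain, eye and limb, had its 6 highest values on the same 6 arrays as MSX1. Other members came near this: DLX5, DLX6, IRX3, PBX2, HOXA2 and HOXC12 each had 5 of their 6 highest values there. The share of all named genes with their highest values on these arrays is not given here, so the match does not set LHX2 apart. It read 6.60, 5.95 and 6.13 on shMOF ERα(+) arrays, against 6.44, 6.40 and 6.88 on control ERα(+) arrays. Its ERα(-) values were 6.46, 6.04 and 6.45 for shMOF, against 6.11, 5.95 and 5.84 for control. Its sixth and seventh values from the bottom, 6.13 and 6.40, lay 0.263 apart, and its widest gap, 0.274, set the highest array, 6.88, apart from the other 11. A further probe set named LHX2 averaged 4.321 and did not follow it (r = -0.212 over 12 arrays, as a description), so the LHX2 values rest on 1 probe set. LHX1, the family member of the Müllerian and nephric ducts, averaged below the silent level but was above 6.155 on replicates 2 and 3 of control ERα(+), with 6.35 and 6.16.

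The DLX genes DLX5 and DLX6, adjacent homeobox genes of jaw, limb and, in mice, uterine epithelium, varied together. DLX6 read 7.05, 6.93 and 7.16 on shMOF ERα(+) arrays, against 7.19, 7.24 and 7.33 on control ERα(+) arrays. In ERα(-) DLX6 read 7.36, 6.99 and 7.16 on shMOF arrays, against 6.89, 7.12 and 7.18 on control arrays. DLX5 read 6.44, 6.24 and 6.46 on shMOF ERα(+) arrays, against 6.46, 6.56 and 6.54 on control ERα(+) arrays. On shMOF ERα(-) arrays DLX5 read 6.65, 6.14 and 6.45, against 6.04, 6.38 and 6.33 on control ERα(-) arrays. The lowest values of both were on replicate 2 of shMOF ERα(+), replicate 2 of shMOF ERα(-) and replicate 1 of control ERα(-), and the highest on replicate 1 of shMOF ERα(-). Over 12 arrays Pearson's r was 0.902 and Spearman's rho 0.902, with permutation p of 9e-05 and 0.00015, and adjusted p of 0.0059 and 0.0099 over all 66 pairs of the 12 expressed members. Without the 2 arrays farthest from the DLX5 median r was 0.861, and it was 0.873 and 0.852 within the 6 arrays of high and the 6 of low IGF2BP1. Pairs of expressed members that are not neighbours also had high values. IRX3 with MEIS1 had r of -0.848, DLX6 with SIX4 -0.841 and DLX6 with PBX2 0.819, with adjusted permutation p of 0.0097, 0.012 and 0.016. Covariation was thus not particular to DLX5 and DLX6. Both also followed the first principal component described below, with r of 0.674 and 0.789, and its part in their relation was not tested. DLX1 to DLX4 were below the silent level, with means from 4.145 to 5.645.

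SIX4 and SIX3 were the expressed members of the sine oculis family, whose factors act with EYA proteins. SIX4, which acts in muscle, kidney and ganglia, read 7.45, 7.43 and 7.32 on shMOF ERα(+) arrays, against 6.98, 7.25 and 6.995 on control ERα(+) arrays. Among ERα(-) arrays SIX4 read 7.14, 7.35 and 7.20 for shMOF, against 7.61, 7.31 and 7.20 for control. All shMOF ERα(+) arrays were above all control ERα(+) arrays, while the ERα(-) groups overlapped. SIX3, a forebrain and eye factor, ranged from 6.34 to 6.84 with group means of 6.54, 6.60, 6.48 and 6.46 in shMOF ERα(+), control ERα(+), shMOF ERα(-) and control ERα(-) arrays.

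MEIS1 and PBX2, members of the TALE class that partner HOX proteins, were expressed on all 12 arrays. MEIS1 read 7.79, 7.91 and 7.74 on shMOF ERα(+) arrays, against 7.43, 7.66 and 7.21 on control ERα(+) arrays. For ERα(-) it was 7.49, 7.82 and 7.66 on shMOF arrays, against 7.66, 7.41 and 7.91 on control arrays. MEIS1 read higher on each shMOF ERα(+) array than on any control ERα(+) array, and PBX2 read lower. PBX2 gave 6.61, 6.59 and 6.73 on shMOF ERα(+) arrays, against 6.79, 7.05 and 7.03 on control ERα(+) arrays. In ERα(-) it read 6.88, 6.44 and 6.90 on shMOF arrays, against 6.63, 6.80 and 6.77 on control arrays. MEIS2, MEIS3, PBX3 and PBX4 were below the silent level. The annotation names 6 probe sets PBX2, whose signals followed each other closely (r of at least 0.909 with the one used).

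IRX3, a factor of the Iroquois class known from the heart, the neural tube and adipose tissue, averaged 6.59 ± 0.060 in shMOF ERα(+) arrays and 6.80 ± 0.10 in control ERα(+) arrays (SD, n = 3 each). It averaged 6.68 ± 0.23 in shMOF ERα(-) arrays and 6.64 ± 0.050 in control ERα(-) arrays. LHX3, a factor of pituitary and motor neurons, reached 7.06 on replicate 3 of control ERα(+) and lay between 6.12 and 6.77 on the other 11 arrays. HOXD13 read 6.88, 6.66 and 6.95 on shMOF ERα(+) arrays, against 6.71, 6.09 and 6.74 on control ERα(+) arrays. On shMOF ERα(-) arrays HOXD13 read 6.69, 6.74 and 6.55, against 6.32, 6.95 and 6.63 on control ERα(-) arrays. The groups of these 3 genes overlapped in shMOF against control among ERα(-) arrays. For IRX3 all shMOF ERα(+) arrays read below all control ERα(+) arrays, and all control ERα(+) arrays above all control ERα(-) arrays.

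**Figure D2:**
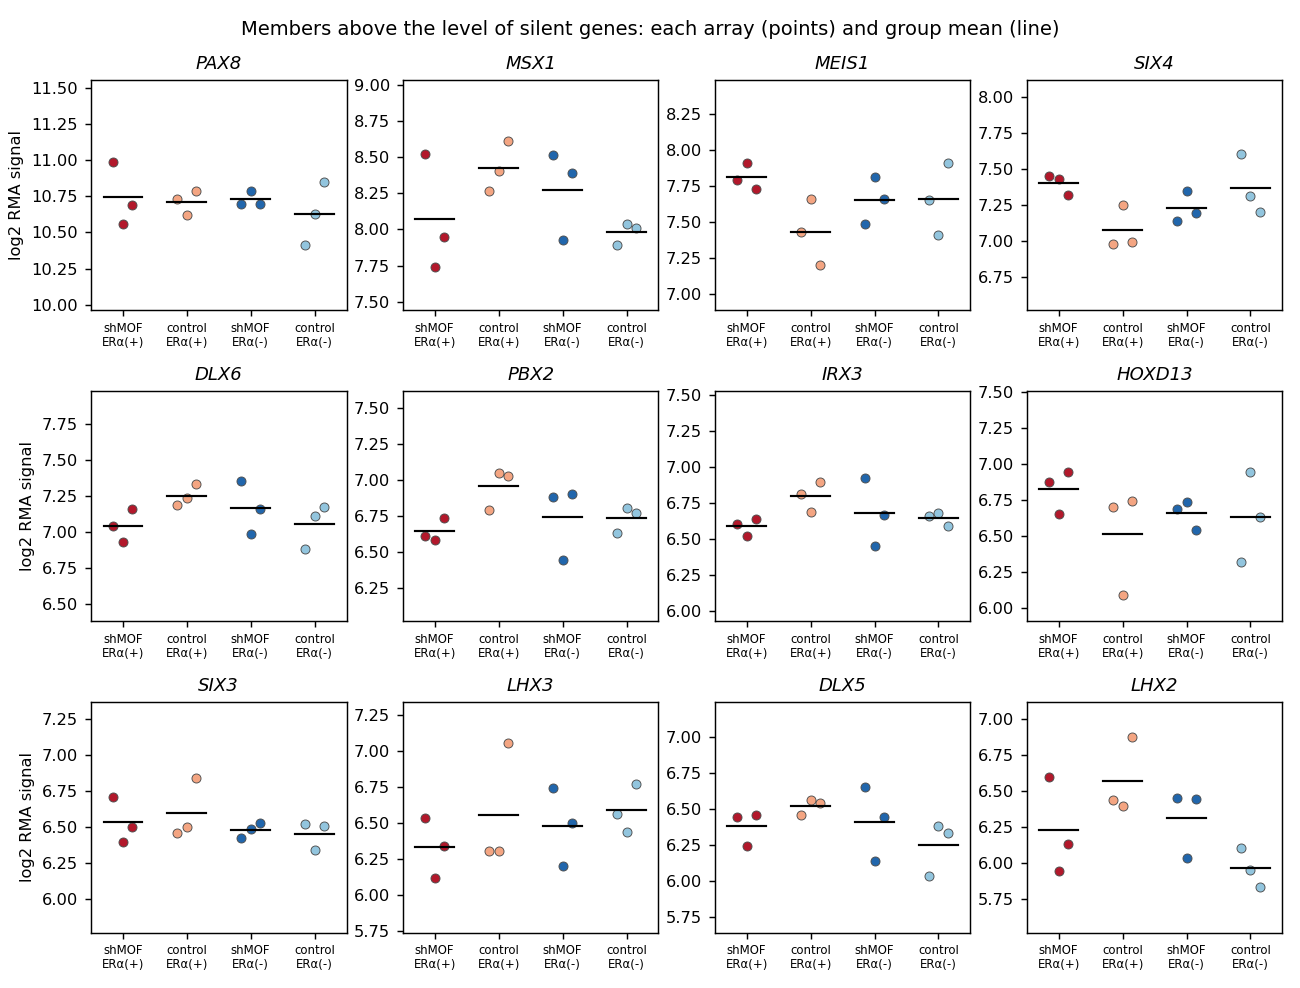
Log2 signal of the 12 expressed genes on each array (points, replicates 1 to 3 from left to right) with the group mean (line), 1 panel a gene with its own axis of equal length. PAX8 overlaps in all groups, and MSX1 and LHX2 read high on the same 6 arrays in 3 of the groups.

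In the shMOF against control comparison of ERα(+) arrays no member passed the test. The limma fit over all named genes called 0% of them at an adjusted p below 0.05 and 0 of the 68, and the lowest adjusted p of a member was 0.223. At an unadjusted p below 0.05 there were 3 members higher in shMOF and 9 lower, against 10.2% higher and 8.51% lower over all genes, and 18.7% in either direction. Of those, MEIS1 had a difference of 0.38 ± 0.15 and SIX4 of 0.32 ± 0.13, both as log2 with SE, and adjusted p of 0.239 by limma. PBX2 had a difference of -0.31 ± 0.14 with an adjusted p of 0.254. Among genes below the silent level, HOXB7, a trunk HOX gene, had the lowest p of all members, with -0.66 ± 0.17 and an adjusted p of 0.223 by limma. It read 4.87, 4.35 and 4.19 on shMOF ERα(+) arrays, against 5.14, 4.94 and 5.32 on control ERα(+) arrays. HOXB4, known from blood stem cells, read 3.89, 3.46 and 3.60 on shMOF ERα(+) arrays, against 4.26, 4.13 and 4.25 on control ERα(+) arrays, a difference of -0.56 ± 0.20. MSX1 and LHX2 differed by -0.36 ± 0.20 and -0.34 ± 0.19, with adjusted p of 0.321 and 0.317 by limma, and their groups overlapped. The groups did not overlap for 5 members higher in shMOF and 11 lower, against 12.2% and 14.1% of all genes. Leaving out shMOF ERα(+) replicate 2 left 1 member higher and 4 lower at an unadjusted p below 0.05, and leaving out control ERα(+) replicate 3 left 1 and 5, with 7.04% and 7.94% of all genes in either direction. Without shMOF ERα(+) replicate 1 or control ERα(+) replicate 1 there were 0 higher and 5 lower, with 19.1% and 14.8% of all genes. The members' median difference was -0.1, against -0.0393 over all genes. The 10 measured epithelial markers had a median of -0.326 in this comparison, with 8 below 0 and 2, KRT18 and KRT7, lower at an unadjusted p below 0.05. Their mean per array lay between 8.09 and 8.35 on shMOF ERα(+) arrays and between 8.38 and 8.64 on control ERα(+) arrays, and CD68 differed by -0.58 ± 0.27. Their part in the members' differences was not tested.

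Among ERα(-) arrays, shMOF against control gave no member past the test either. Members called numbered 0 of 68, with 0% of all genes called, and the lowest adjusted p was 0.953. At an unadjusted p below 0.05 there were 0 members higher and 4 lower in shMOF, against 2.1% and 2.68% of all genes, and 4.78% in either direction. The 4 were all HOX genes with means below the silent level: HOXD10 at -0.37 ± 0.13, HOXC8 at -0.38 ± 0.14, HOXD11 at -0.34 ± 0.13 and HOXD3 at -0.30 ± 0.13 (log2, SE). Of the expressed members LHX2 had the lowest p, with 0.35 ± 0.19, followed by MSX1 with 0.30 ± 0.20, DLX5 with 0.16 ± 0.14 and SIX4 with -0.14 ± 0.13, and the groups overlapped for all 4. The groups did not overlap for 1 member higher in shMOF and 3 lower, against 4.11% and 4.66% of all genes. Without shMOF ERα(-) replicate 2 the members at an unadjusted p below 0.05 numbered 5 higher and 4 lower, with 11.2% of all genes. Without shMOF ERα(-) replicate 3 they numbered 0 and 1, with 2.92% of all genes. Without control ERα(-) replicate 3 they were 1 and 6, with 4.59%, and the count without replicate 1 is given with the HOXD genes below. The members' median was -0.0145, against -0.00261 over all genes.

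ERα(+) against ERα(-) among control arrays held the largest difference of any member between 2 groups, that of LHX1, but no member passed the test. The limma fit called 0% of all genes and 0 of 68 members, with a lowest adjusted p of 0.333. At an unadjusted p below 0.05 there were 4 members higher in ERα(+) and 6 lower, against 6.34% and 6.38% of all genes, and 12.7% in either direction. LHX1 read 5.81, 6.35 and 6.16 on control ERα(+) arrays, against 5.11, 5.34 and 5.71 on control ERα(-) arrays. The LHX1 groups did not overlap, with a difference of 0.72 ± 0.17 and an adjusted p of 0.333 by limma. LHX2 was 0.61 ± 0.19 apart and MSX1 0.45 ± 0.20, with adjusted p of 0.333 and 0.379 by limma and no overlap between the groups of either. As given above, all control ERα(+) arrays had low IGF2BP1 and all control ERα(-) arrays high IGF2BP1, so in control arrays the label and that pattern cannot be told apart. DLX5 differed by 0.27 ± 0.14 and SIX4 by -0.30 ± 0.13. Without control ERα(+) replicate 2 the members at an unadjusted p below 0.05 were 2 higher and 2 lower, with 16.5% of all genes, and without control ERα(+) replicate 3 they were 2 and 5, with 7.5%. Without control ERα(-) replicate 1 they were 3 and 1, with 8.43% of all genes, and without replicate 2 of that group 2 and 4, with 13.4%. Groups did not overlap for 6 members in each direction, against 10.3% of all genes higher and 8.92% lower. The median difference of the members was -0.0105, against -0.00236 over all genes.

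Among shMOF arrays, ERα(+) against ERα(-) called 0% of all genes and 0 of 68 members, with a lowest adjusted p of 0.746. At an unadjusted p below 0.05 there were 0 members higher in ERα(+) and 6 lower, against 2.52% and 2.81% of all genes, and 5.33% in either direction. All 6 had means below the silent level. IRX1, an Iroquois gene of lung and kidney, read 4.84, 4.56 and 5.05 on shMOF ERα(+) arrays, against 5.37, 5.18 and 5.18 on shMOF ERα(-) arrays, a difference of -0.43 ± 0.14. SIX2, which keeps nephron progenitors, read 5.64, 5.20 and 5.75 on shMOF ERα(+) arrays, against 6.07, 5.88 and 5.87 on shMOF ERα(-) arrays, a difference of -0.41 ± 0.16. The others were DLX1, HOXB7, PAX5 and MSX2. Of the expressed members SIX4 had the lowest p, with 0.17 ± 0.13, then MSX1 with -0.21 ± 0.20, MEIS1 with 0.16 ± 0.15 and DLX6 with -0.13 ± 0.13, and the groups of these 4 overlapped. Groups did not overlap for 0 members higher and 5 lower, against 3.8% and 5.7% of all genes. Leaving out shMOF ERα(+) replicate 2 left 0 members higher and 1 lower at an unadjusted p below 0.05, with 2.93% of all genes, and leaving out shMOF ERα(-) replicate 1 left 1 and 1, with 2.94%. Without shMOF ERα(+) replicate 3 they were 1 and 3, with 5.08% of all genes. Without shMOF ERα(-) replicate 2 they were 2 and 3, with 17.4%, and without replicate 3 of that group 0 and 4, with 3.3%. The median over members was -0.0829, against -0.0262 over all genes.

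**Figure D3:**
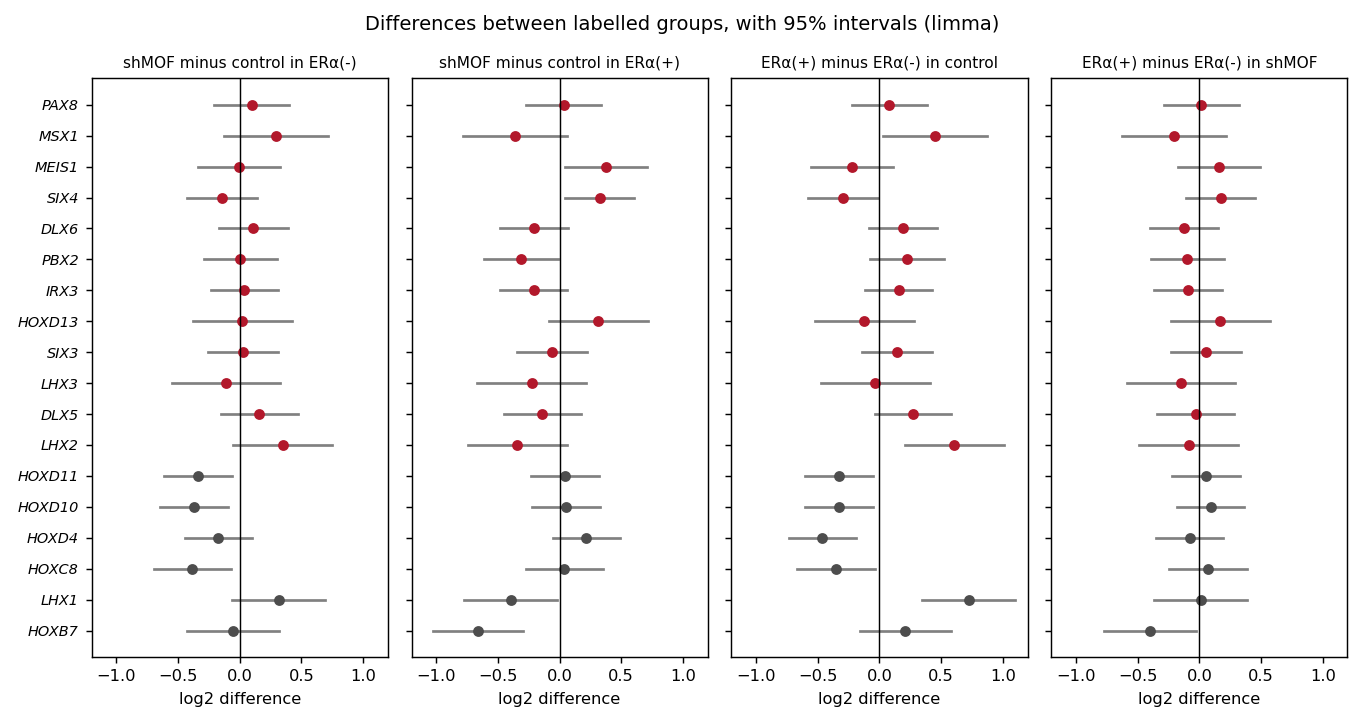
Log2 differences with 95% intervals from limma for the 12 expressed genes (red) and 6 genes below the silent level (grey). The 4 comparisons of 2 groups are drawn, and the first-named group is higher to the right of 0. LHX1 in ERα(+) against ERα(-) among control arrays, 0.72, is the farthest from 0 of the values drawn, and 0 of the 68 members passed the adjusted threshold.

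The interaction, taken as shMOF minus control among ERα(+) arrays less shMOF minus control among ERα(-) arrays, called 0% of all genes and 0 of 68 members, with a lowest adjusted p of 0.223. At an unadjusted p below 0.05 there were 3 members above 0 and 4 below, against 9.35% and 8.69% of all genes, and 18% in either direction. The 7 were LHX1 at -0.71 ± 0.25, LHX2 at -0.69 ± 0.26, MSX1 at -0.66 ± 0.28, HOXB7 at -0.61 ± 0.24, SIX4 at 0.46 ± 0.19, HOXD10 at 0.42 ± 0.18 and HOXD4 at 0.39 ± 0.18 (log2, SE). MEIS1 had 0.38 ± 0.22 with an unadjusted p of 0.101 by limma. Of the expressed members 3 were above 0 and 9 below. Without control ERα(+) replicate 3 there was 1 member at an unadjusted p below 0.05 on each side of 0, with 11.5% of all genes. Without shMOF ERα(+) replicate 1 there were 0 above and 4 below, with 19.3% of all genes, and without replicate 2 of that group 2 and 2, with 10%. Without shMOF ERα(-) replicate 2 there were 4 and 8, with 27.1%, and without replicate 1 of that group 1 and 3, with 10.4%. They numbered 2 and 6 without control ERα(+) replicate 2, with 22% of all genes, and 0 and 5 without control ERα(-) replicate 1, with 16.2%. LHX2 and MSX1 had an interaction of -0.05 and -0.02 once the first principal component of the arrays was in the fit. That component is made from the same values and has all control ERα(+) arrays on the other side of 0 from all shMOF ERα(+) arrays. The fit can therefore take up part of the label difference itself and cannot tell label and component apart. When limma weighted arrays by their quality, members passed the test in 4 of the 5 comparisons, 7 of them for shMOF in ERα(+), where HOXB7 had -0.75 with an adjusted p of 0.0201, and 1629 of all genes passed there too. Precision was limited by 3 arrays a group: the members' 95% intervals extended by a median of 0.321 each way between 2 groups and 0.454 for the interaction.

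Among the HOXD genes, mostly at a low signal, the control ERα(-) group had the highest mean for 5 of 9, namely HOXD3, HOXD4, HOXD8, HOXD10 and HOXD11. It also did for 5 of 10 HOXB genes, 1 of 7 HOXC genes, 23 of 68 members and 24% of all named genes. HOXD11, a posterior gene of limb and kidney, read 6.06, 6.03 and 6.17 on shMOF ERα(+) arrays, against 6.06, 5.89 and 6.17 on control ERα(+) arrays. The ERα(-) values of HOXD11 were 6.01, 6.09 and 5.99 for shMOF, against 6.56, 6.42 and 6.14 for control. HOXD10, its neighbour, read 5.75, 5.70 and 5.74 on shMOF ERα(+) arrays, against 5.85, 5.52 and 5.67 on control ERα(+) arrays. It read 5.56, 5.85 and 5.51 on shMOF ERα(-) arrays, against 6.13, 5.93 and 5.96 on control ERα(-) arrays, which were above all 9 others. HOXD4, a gene of the anterior part of the cluster, read 5.71, 5.75 and 5.76 on shMOF ERα(+) arrays, against 5.65, 5.38 and 5.55 on control ERα(+) arrays. In ERα(-) it read 5.94, 5.75 and 5.77 on shMOF arrays, against 6.19, 5.97 and 5.81 on control arrays. HOXD3 averaged 5.07 in shMOF ERα(+), 5.01 in control ERα(+), 4.99 in shMOF ERα(-) and 5.29 in control ERα(-) arrays. HOXD3 and HOXD4 overlap in the genome and HOXD4 has 2 probe sets that followed each other loosely (r = 0.51), so their signals may share transcripts, which was not tested.

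In ERα(+) against ERα(-) among control arrays 8 of 9 HOXD genes had a difference below 0, with a median of -0.122, and in shMOF against control in ERα(-) 6 of 9 did, with a median of -0.172. Over all 14884 genes 7508 and 7533 were below 0 in these comparisons. In the first so were 6 of 10 HOXB and 2 of 7 HOXC genes, and in the second 7 of 10 HOXB and 5 of 7 HOXC genes. These comparisons share the control ERα(-) arrays, so they are given side by side only. In shMOF against control in ERα(+), which does not use those arrays, 3 of 9 were below 0, with a median of 0.0533. Without control ERα(-) replicate 1 the members lower at an unadjusted p below 0.05 numbered 1 in place of 4 for shMOF in ERα(-). They numbered 1 in place of 6 for ERα(+) in control arrays. Of all genes, 3.33% and 8.43% were below that threshold in either direction in these fits. HOXC8, a thoracic HOX gene on another chromosome, also had its highest group mean in control ERα(-) arrays, as the only 1 of 7 HOXC genes. It read 5.64, 5.59 and 5.46 on shMOF ERα(+) arrays, against 5.70, 5.34 and 5.54 on control ERα(+) arrays, and in ERα(-) 5.42, 5.32 and 5.75 on shMOF arrays, against 6.08, 5.75 and 5.81 on control arrays. HOXD13, the expressed gene of the cluster, did not, and its differences were -0.12 ± 0.19 and 0.02 ± 0.19 in these comparisons.

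**Figure D4:**
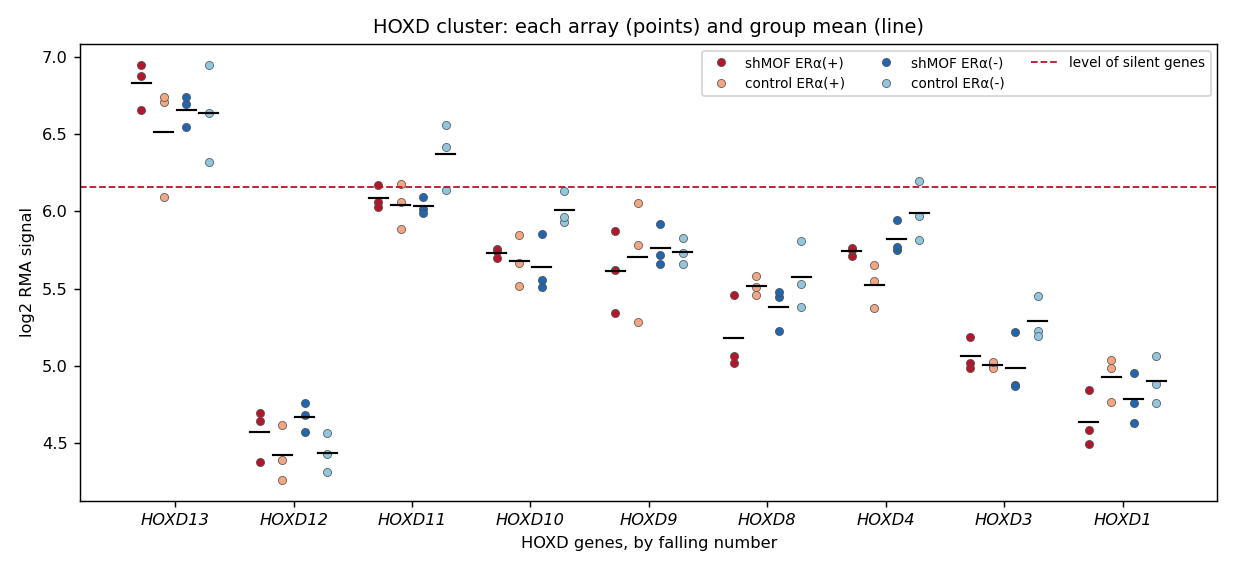
Log2 signal of the 9 measured HOXD genes on each array (points) with group means (lines), ordered from HOXD13 to HOXD1; the dashed line is the level of silent genes, 6.155. Control ERα(-) arrays have the highest group mean for HOXD11, HOXD10, HOXD8, HOXD4 and HOXD3, and HOXD13 is the only gene with its mean over 12 arrays above the line.

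Members were also set against the first principal component of all named genes, which held 36.8% of the variance between arrays. The component is made from these same values, so strong correlations with it are built in for many genes. The share of all named genes with such correlations is not given here, so the p-values below do not set a member apart from other genes. All control ERα(+) arrays were above 0 on it (13.3, 3.6 and 32.9) and all shMOF ERα(+) arrays below (-4.4, -29.8 and -9.85). The shMOF ERα(-) arrays lay on both sides (22.3, -18 and 9.68), and the control ERα(-) arrays were slightly below 0 (-4.22, -3.58 and -11.9). IRX3 followed it most closely of the 12 expressed members, with Pearson's r of 0.925 and Spearman's rho of 0.958 over 12 arrays, each with a permutation p of 1e-05, the smallest that 100000 permutations can give, and an adjusted p of 0.00012 over 12 members. Without the 2 farthest arrays, control ERα(+) replicate 3 and shMOF ERα(-) replicate 1, r was 0.856. Within the 6 arrays of high IGF2BP1 r was 0.796, and within the 6 of low IGF2BP1 it was 0.917, with exact permutation p of 0.051 and 0.0097 and adjusted p of 0.25 and 0.12 over 24 values. The IRX3 relation thus had the same sign in both sets and did not pass the adjusted threshold in either.

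MEIS1 went against the component, with r of -0.851 and rho of -0.86, permutation p of 0.00044 and 0.00062, an adjusted p of 0.0018 for r, and r of -0.726 without the 2 farthest arrays. Within the arrays of high and low IGF2BP1, r was -0.742 and -0.943, with exact permutation p of 0.081 and 0.0069 and adjusted p of 0.26 and 0.12. For DLX6 r was 0.789 and rho 0.748, with permutation p of 0.0022 and 0.007, and r within the same sets was 0.322 and 0.857. DLX5 had r of 0.674 and rho of 0.755, with permutation p of 0.016 and 0.0063. Within the sets r of DLX5 was 0.104 and 0.504. For PBX2 r was 0.756 and rho 0.818, with permutation p of 0.0045 and 0.0019, and r within the sets was 0.57 and 0.551. SIX4 had r of -0.704 and rho of -0.734, with permutation p of 0.011 and 0.0086, and r within the sets was 0.0319 and -0.821. LHX3 had r of 0.689 and rho of 0.462, with permutation p of 0.013 and 0.13, and r was 0.296 without the 2 farthest arrays, so the pooled value rests on them. Within the sets r of LHX3 was 0.658 and 0.763, with exact permutation p of 0.15 and 0.086. LHX2 had r of 0.815 and rho of 0.748, with permutation p of 0.0013 and 0.0068, and r of 0.685 without the 2 farthest arrays. For MSX1, whose widest gap splits the arrays into the same sets, no pooled value is given. Within the sets r was 0.779 and 0.379 for MSX1 and 0.252 and 0.537 for LHX2, with exact permutation p from 0.067 to 0.62. PAX8 and HOXD13 had r of 0.153 and -0.075, with permutation p of 0.64 and 0.82.

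**Figure D5:**
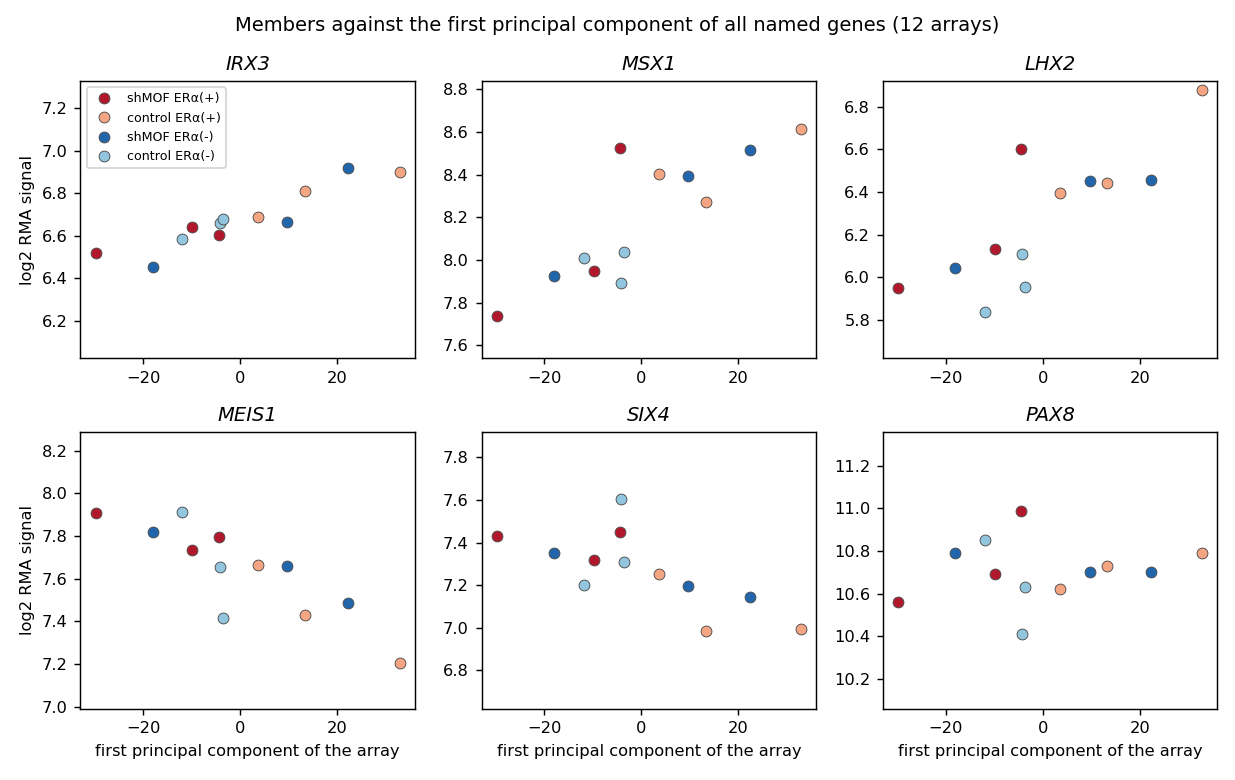
Log2 signal of 6 members against the first principal component of all named genes on 12 arrays, coloured by labelled group; panels have axes of equal length. IRX3 rises with the component and MEIS1 runs against it, MSX1 and LHX2 read high on the same 6 arrays, and PAX8 shows no slope (r = 0.153).

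Genes that work with these factors were counted from lists, and 0 of them were called in any comparison. Of the partner genes, which are the EYA co-activators of sine oculis proteins, the LIM-domain cofactors and the other TALE factors, 15 of 17 were measured. EYA4 averaged 8.20 in shMOF ERα(+) arrays and 7.34 in control ERα(+) arrays, a difference of 0.86 ± 0.23 with an adjusted p of 0.223 by limma. Its shMOF ERα(-) and control ERα(-) means were 7.70 and 8.14, and the interaction was 1.30 ± 0.33 with an adjusted p of 0.207 by limma. EYA1 differed by 0.68 ± 0.18 between ERα(+) and ERα(-) control arrays. At an unadjusted p below 0.05 the partners numbered 2 higher and 1 lower for shMOF in ERα(+), 2 and 1 for ERα in control arrays, 0 and 0 for shMOF in ERα(-), and 1 and 0 for ERα in shMOF arrays. The shares of all genes, higher and lower, were 10.2% and 8.51%, 6.34% and 6.38%, 2.1% and 2.68%, and 2.52% and 2.81% in the same comparisons.

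Polycomb proteins keep HOX clusters silent and MLL-trithorax proteins keep them active, as background. Of 20 measured Polycomb genes of 26 listed, 16 were above the silent level, and 3 were higher and 2 lower at an unadjusted p below 0.05 for shMOF in ERα(+), among them MTF2 at 0.68 ± 0.22 and SUZ12 at 0.53 ± 0.20. All 15 measured MLL and trithorax genes of 20 listed were above it, and 2 were higher and 1 lower in that comparison, with KMT2C at 0.57 ± 0.22. Both shares are to be read beside the 10.2% and 8.51% of all genes. For ERα in control arrays they numbered 2 and 2 Polycomb and 1 and 0 MLL and trithorax genes, for shMOF in ERα(-) 0 in either list, and for ERα in shMOF arrays 0 and 1 and 0 and 0, to be read beside the shares just given for those comparisons.

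Retinoic acid genes, which act upstream of HOX genes in embryos, were measured for 4 of 18 listed. DHRS3, a retinal reductase that retinoic acid induces, averaged 6.29 in shMOF ERα(+) arrays and 7.81 in control ERα(+) arrays, a difference of -1.52 ± 0.34 with an adjusted p of 0.223 by limma. It averaged 7.27 in shMOF ERα(-) arrays and 6.65 in control ERα(-) arrays, and its interaction was -2.14 ± 0.49 with an adjusted p of 0.197 by limma. CRABP2 and STRA6, which carry retinoids, had -0.52 ± 0.20 and -0.40 ± 0.17 for shMOF in ERα(+). Of the 4 genes, 1 was above 0 and 3 below in that comparison. At an unadjusted p below 0.05 there were 0 higher and 3 lower, against 10.2% and 8.51% of all genes. Only 2 of the 4 were above the silent level, DHRS3 among them, so at least 1 of CRABP2 and STRA6 was not.

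Of Müllerian and uterine genes outside the families, 9 of 15 were measured and 3 were above the silent level. EMX2, a homeobox gene of the urogenital ridge, averaged 8.36 in control ERα(+) arrays and 7.85 in control ERα(-) arrays, a difference of 0.51 ± 0.14 with an adjusted p of 0.333 by limma. FOXA2, a factor of uterine glands, and SOX17 differed by 0.43 ± 0.16 and 0.48 ± 0.20 in the same comparison. Those 3 were the genes of the list at an unadjusted p below 0.05, with 0 lower, against 6.34% and 6.38% of all genes. Of the 9, 5 were above 0 and 4 below, with a median of 0.044, against -0.00236 over all genes. Of 62 other homeobox genes 53 were measured and 13 were above the silent level. Among them HMBOX1 had 0.44 ± 0.18 and SATB1 0.44 ± 0.15 for shMOF in ERα(+), and POU3F2 had -0.29 ± 0.12. These were the 2 higher and 1 lower at an unadjusted p below 0.05, against 10.2% and 8.51% of all genes, while 19 of the 53 were above 0 and 34 below, with a median of -0.0501.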

How the data were processed

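Expression of 12 arrays of Ishikawa cells was analysed, 3 for each of 4 groups taken from the labels. The authors deposited log2 values that, per the submitters' processing notes, come from RMA in Affymetrix Expression Console 1.4.1. RMA subtracts background, gives the arrays 1 distribution and joins probes into probe sets, which can compress differences of dim genes. The genome build is not given in the sources used here. Of 53617 probe sets, 16098 were named by the platform annotation and 37519 are unnamed here, and 14884 genes were kept with the probe set of the highest mean where there were several (779 genes). Group means were fitted with limma 3.58.1 in R 4.3.3 (lmFit, eBayes, two-sided, 8 residual degrees of freedom), with Benjamini-Hochberg adjustment within each comparison over all genes and calls below 0.05. The pipeline was tested on simulated data. Array number limits the precision.

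The members and lists were chosen with earlier results of these data known. The design named olfactory receptors as silent genes, but the annotation names 1 of them, so 84 KRTAP genes replaced them after the values were seen. Members named by array were the 6 with the highest signal means (a rule for naming, not an order of expression), PAX2, PAX8, LHX1, MSX1, MSX2 and MEIS1, the nearest on either side of the silent level and, per comparison, 4 expressed and 2 other members of lowest p. Others, among them HOXD3, IRX3 with its correlation, and IGF2BP1, were named after their values were seen. Promoters were matched by gene identifier for 41 members.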

Additional observations from a re-analysis of the deposited data

How the results depend on the processing

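Each of the 5 comparisons was fitted under 23 or 24 alternatives, many of them shared between comparisons. Counts of called members stayed at 0 in 115 of these cases, and array quality weights gave the other 4. With them 3 members were called for shMOF in ERα(-) (of 645 genes), 7 for shMOF in ERα(+) (of 1629), 5 between ERα labels among shMOF arrays (of 1918) and 6 in the interaction (of 3258). The cause was not tested. Leaving out 1 array at a time gave 0 called members in every comparison. The members' median difference did not keep its sign over the alternatives. It ran from -0.174 to 0.0371 for shMOF in ERα(+) and from -0.0612 to 0.031 for shMOF in ERα(-). For ERα it ran from -0.111 to 0.15 among control arrays and from -0.149 to 0.0374 among shMOF arrays. Adding the first component of the arrays to the fit, LHX2 was 0.129 for shMOF in ERα(+), MSX1 was 0.0842 and MEIS1 -0.0407 for ERα in shMOF arrays, and MEIS1 was -0.0534 in the interaction, each with the opposite sign, and the cause was not tested. LHX2 and MSX1 were -0.0504 and -0.0166 in the interaction, nearer to 0 with the same sign. The component separates the control ERα(+) from the shMOF ERα(+) arrays, so these fits cannot tell label and component apart. The count of 12 expressed members was 5 at the 99th percentile of KRTAP genes and 20 at the median of all named genes, as the higher and lower levels make it; it was 11 with LCE genes, 11 with the mean of probe sets, 8 when all 12 arrays had to be above, and 12 without any one array. Deviations from the group mean had r from -0.179 to 0.453 between arrays of the same replicate number. Arrays of unlike numbers were not set beside them, so whether the numbers pair the arrays is not settled. The replicate block called 0 members. The alternatives based on olfactory receptors were not run, since 1 is named. Means below the silent level limit what can be said of the other 56 members.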
